A study of Mus musculus with 30 samples.

Results

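The genes described here are 35 cytosolic and mitochondrial heat shock proteins, their co-chaperones and their main transcription factor, in 30 mouse heart samples profiled by poly(A) RNA sequencing. They were taken as the rows of the deposited count table whose symbol in the GENCODE mouse annotation is one of 35 listed names. All 35 were found among 55487 gene identifiers, and all 35 passed the filter on low counts in both cohorts. Each heart was taken 8 weeks after surgery, which was either transverse aortic constriction (TAC, a narrowing of the aortic arch against which the left ventricle must pump) or a sham operation. The floxed cohort holds CPT1a floxed mice after sham (FF_sham) or TAC (FF_TAC) and mice with a cardiac specific CPT1a knockout after sham (KO_sham) or TAC (KO_TAC), with 4 samples a group. The AAV9 cohort holds C57Bl/6 mice given saline (PBS_sham and PBS_TAC, 3 samples each) or the AAV9.Cpt1a vector (AAV_sham and AAV_TAC, 4 samples each). The series description names the vector's cTNTN element, and the Cre driver of the knockout is not given in the sources used here. Constricting clips came in more than 1 width, and the labels do not say which mouse had which. Each KO_TAC title holds the words TAC and Sham together, and the treatment label, which gives TAC, was followed. The labels do not say whether libraries of a group came from separate animals, so p-values measure the spread between these samples.

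Heat shock proteins are chaperones that bind unfolded proteins and help them fold or reach a protease. HSP70s cycle on and off their clients with the help of J-domain proteins and nucleotide exchange factors, HSP90s finish the folding of signalling proteins, small heat shock proteins hold unfolded chains without ATP, and mitochondria keep a set of their own. Some members are made all the time, and others are transcribed within minutes of heat or another proteotoxic stress, when heat shock factor 1 (Hsf1) binds heat shock elements, which are inverted repeats of a GAA unit. Heart muscle holds large amounts of small heat shock proteins, which associate with the sarcomere and its Z-disc.

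The stretches before the start sites of 4 members are printed because these members moved together or share a promoter, and they show what the heat shock element looks like in them. They are RefSeq promoter windows of build GRCm38.p6, read in the direction of the gene, with matches to a heat shock element in capitals.
Hspa1a: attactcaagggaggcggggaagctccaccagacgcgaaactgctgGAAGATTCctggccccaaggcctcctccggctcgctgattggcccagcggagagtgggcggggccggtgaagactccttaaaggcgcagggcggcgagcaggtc
Hspa1b: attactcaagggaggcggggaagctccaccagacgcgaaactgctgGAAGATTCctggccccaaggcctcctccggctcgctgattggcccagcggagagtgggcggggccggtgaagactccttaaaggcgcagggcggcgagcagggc
Hspb1: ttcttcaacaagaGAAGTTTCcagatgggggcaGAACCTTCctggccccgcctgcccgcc
Hspe1: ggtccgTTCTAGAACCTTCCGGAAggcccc
The Hspa1a stretch covers chr17:34972157-34972306 on the minus strand, the last 150 bases before the start. The Hspa1b stretch covers chr17:34959239-34959388 on the minus strand, and over all 250 bases before the start both genes differ from each other at 3 positions. The Hspb1 stretch lies at chr5:135887789-135887848 on the plus strand. The Hspe1 stretch lies at chr1:55088053-55088082 on the plus strand, in the window that Hspe1 shares, read the other way, with Hspd1.

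The letters searched were the 2-unit forms GAANNTTC and TTCNNGAA and the 3-unit forms GAANNTTCNNGAA and TTCNNGAANNTTC, on both strands, where every 3-unit match also holds 2-unit matches. A promoter window of 300 bases, 250 before and 50 after the start, was found for 27 of the 35 members, as 40 windows in all. At least 1 window held a 3-unit match in 4 members, Hsph1, Hspe1, Hspd1 and Dnajb6, and at least 1 held a 2-unit match in 14 members. By window, 15% of the 40 member windows held a 3-unit match and 40% a 2-unit match, against 0.603% and 15.1% of 32841 windows of all genes. Overlapping windows count the same letters again. Both Dnajb6 windows hold the same 3-unit site, as do both Hsph1 windows, and Hspd1 and Hspe1 share theirs. The member share is therefore not a count of separate sites. Hspa1a and Hspa1b hold 1 2-unit match each and Hspb1 holds 2. Hspb7 and Dnajb1 hold none of these forms in the windows searched. A match is a run of letters, not a measured binding site.

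Library totals ran from 14839758 to 22070373 counts. Cpt1a, the targeted gene, ran from 38.6 to 53.5 CPM (read counts as a share of the library, scaled by TMM over all 30 libraries) in FF_sham, from 16.7 to 49.9 in FF_TAC, from 20.9 to 46.8 in KO_sham and from 11.3 to 19.8 in KO_TAC. With saline it ran from 36.7 to 70.0 CPM after sham and from 39.5 to 59.1 after TAC, and with the vector from 54.9 to 85.9 after sham and from 43.8 to 61.5 after TAC, so that vector and saline hearts overlapped after both operations. In 7 libraries of the floxed cohort, namely FF_TAC 2 and 3, KO_sham 2 and all 4 of KO_TAC, the 4 haemoglobin transcripts summed to 1.40 to 51.1 CPM before scaling, against 294 CPM or more in each of the other 23 libraries. These 7 are called haemoglobin-low below. In the AAV9 cohort PBS_sham 3 stood apart: its 6 ventricular cardiomyocyte markers summed to 24550 CPM against 44840 or more in the other 13 libraries, and its 4 smooth muscle markers to 1849 CPM against 240 or less. The 3 atrial markers varied within every group, from 1.30 to 8544 CPM over all libraries. In the AAV9 cohort their median sum was 667 CPM in PBS_sham and 200 in AAV_sham, against 2.75 in PBS_TAC and 1.8 in AAV_TAC. The ranges overlapped, but TAC and atrial content are partly confounded in that cohort. Fits with the atrial gene Myl7 as a covariate are given below and cannot fully separate them. Reads of near-identical genes cannot always be told apart, and how the authors' counting split them is not stated. Of the 100-base stretches of the transcripts, 48.6% of those of Hspa1a and 49.9% of those of Hspa1b occur in another gene, mostly each other, and the share was 44% for Hspb1, 38% for Hsp90aa1, 28.2% for Hspa8, 23.4% for Hspd1, 14.6% for Dnajb6, 10% for Hspe1 and 9.21% for Dnaja1, mostly with pseudogenes. Hspa1l, Hspa1a, Dnaja4, Dnaja1, Hspb2 and Cryab overlap a gene on the opposite strand over part of their exons. So do Hspe1, Hspd1, Hspb6, Dnajb6, Dnaja3 and Hspa12a. The share of exon length ran from 1.81% for Hspa12a to 71.9% for Hspa1l. The library kit keeps strand, but the counting setting is not given, so these members are uncertain too.

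In FF_sham the members spanned a wide range of levels per length (RPKM, scaled CPM per kilobase of exon). The small heat shock proteins Cryab (906 ± 147 RPKM, SD, n = 4) and Hspb7 (802 ± 111) stood at the top, followed by the constitutive HSP90 Hsp90ab1 (525 ± 30.6), Hspb6 (353 ± 38.0), the constitutive HSP70 Hspa8 (261 ± 17.5) and Hspb8 (250 ± 43.1). Cryab and Hspb7 lay within 1 SD of each other, as did Hspa8 and Hspb8. The mitochondrial chaperones Hspa9 (180 ± 10.6) and Hspd1 (140 ± 8.02) came next with Hspb1 (175 ± 39.3). The inducible HSP70 genes were last, Hspa1b at 0.79 ± 0.31 and Hspa1a at 0.68 ± 0.26 RPKM. Over all 30 libraries Hspa1a reached 199 and Hspa1b 274 RPKM, so the lowest members in control hearts were also those that varied most.

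Among the comparisons of the design, TAC in the knockout hearts gave the largest number of called members. In KO_TAC against KO_sham 16 members were higher and 2 lower at an adjusted p under 0.05 (edgeR's quasi-likelihood test, adjusted by Benjamini-Hochberg over 15596 genes), where 25.8% of all genes tested were called. By direction the background was 14.3% called higher and 11.5% called lower. The libraries of both groups did not overlap for 12 members that were higher, against 10.5% of genes, and for 2 that were lower, against 12.5%. DESeq2 called 18 members where 30.9% of genes were called, and RLE size factors gave 18 where 25.9% were called. The median log2 fold change was 0.47 over the 35 members and 0.0205 over all genes tested. All 3 HSP110 exchange factors, both HSP90s, 2 of 5 HSP70s, 4 of 7 small heat shock proteins, 3 of 8 J-domain proteins, 1 of 4 mitochondrial chaperones and Bag3 were higher, and 2 of 4 divergent HSP70s were lower. Fibroblast markers moved in the same comparison: 2 of 5 were higher by the same test and none lower, and the 5 summed to 1282 to 1474 CPM in KO_TAC against 688 to 969 in KO_sham, with none at 0. Of the 6 ventricular cardiomyocyte markers 1 was higher and 2 lower, with sums of 40180 to 59290 CPM against 46980 to 53310. Their part in the members' changes was not tested. In bulk tissue a change in the number of cells of a type and a change in RNA per cell cannot be told apart. All 4 KO_TAC libraries are haemoglobin-low and 3 of 4 KO_sham libraries are not, so TAC in the knockout and the haemoglobin level are largely confounded. With a term for the haemoglobin-low libraries in the model, 3 members stayed called, Hsph1, Hsp90aa1 and Hspb1, where 1.75% of all genes were called.

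The inducible HSP70 genes Hspa1a and Hspa1b encode near-identical cytosolic chaperones that are silent in most unstressed cells. Hspa1a stood at 1.81, 2.42, 1.04 and 2.76 CPM in FF_sham 1 to 4 and at 1.74, 28.9, 170 and 3.01 in FF_TAC 1 to 4. It stood at 1.23, 210, 1.87 and 2.99 CPM in KO_sham 1 to 4 and at 181, 482, 590 and 272 in KO_TAC 1 to 4. All 7 haemoglobin-low libraries lay above 28 CPM and all 9 other libraries of the floxed cohort at 3.01 CPM or below, in sham and TAC hearts and in both genotypes alike. Hspa1b followed the same libraries, with 1.31 to 3.25 CPM in the 9 and 19.7 to 769 CPM in the 7. FF_TAC against FF_sham gave a log2 fold change of 4.64 ± 1.68 (SE) for Hspa1a, with an adjusted p of 0.37 by edgeR's quasi-likelihood test, and KO_TAC against KO_sham gave 2.82 ± 1.48, with an adjusted p of 0.16. Without KO_sham 2 the latter was 7.55 ± 1.44 for Hspa1a and 7.86 ± 1.48 for Hspa1b, with adjusted p of 0.0057 and 0.0054 by the same test. That fit leaves KO_sham without a haemoglobin-low library, so TAC and the haemoglobin level are then fully confounded and cannot be told apart. With the haemoglobin term the values for Hspa1a were -0.15 ± 0.67 in FF and 1.28 ± 0.62 in KO, neither called.

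Hspa1a in the AAV9 cohort was well above the floxed sham level in shams of both kinds and lower after TAC. It stood at 76.0, 211 and 66.5 CPM in PBS_sham 1 to 3 and at 31.7, 10.5 and 34.7 in PBS_TAC 1 to 3. It stood at 36.2, 131, 207 and 104 CPM in AAV_sham 1 to 4 and at 18.3, 16.7, 3.06 and 17.1 in AAV_TAC 1 to 4. Every TAC library of this cohort lay below every sham library, which was so for 3 members and 0.527% of genes, and no library of this cohort was haemoglobin-low. Hspa1b gave 114, 330 and 76.4 CPM in PBS_sham, 33.4, 9.12 and 36.4 in PBS_TAC, 52.2, 167, 306 and 134 in AAV_sham and 22.6, 22.3, 3.67 and 18.7 in AAV_TAC, again with no overlap. The log2 fold change of Hspa1a was -2.19 ± 0.70 with saline and -3.11 ± 0.63 with the vector, with adjusted p of 0.18 and 0.16 by edgeR's quasi-likelihood test. Over both injections together, a contrast added after seeing the data, the log2 fold change was -2.65 ± 0.48 for Hspa1a and -3.00 ± 0.52 for Hspa1b, with adjusted p of 0.028 and 0.027. With 1 library left out, Hspa1a lost this call in 9 of 14 fits (log2 fold changes from -2.80 to -2.27) and Hspa1b in 7 of 14 (-3.19 to -2.55), and both lost it with the replicate block and with the Myl7 covariate. The cohorts differ in strain and controls and no design contrast joins them, so their levels stand side by side only.

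**Figure D1:**
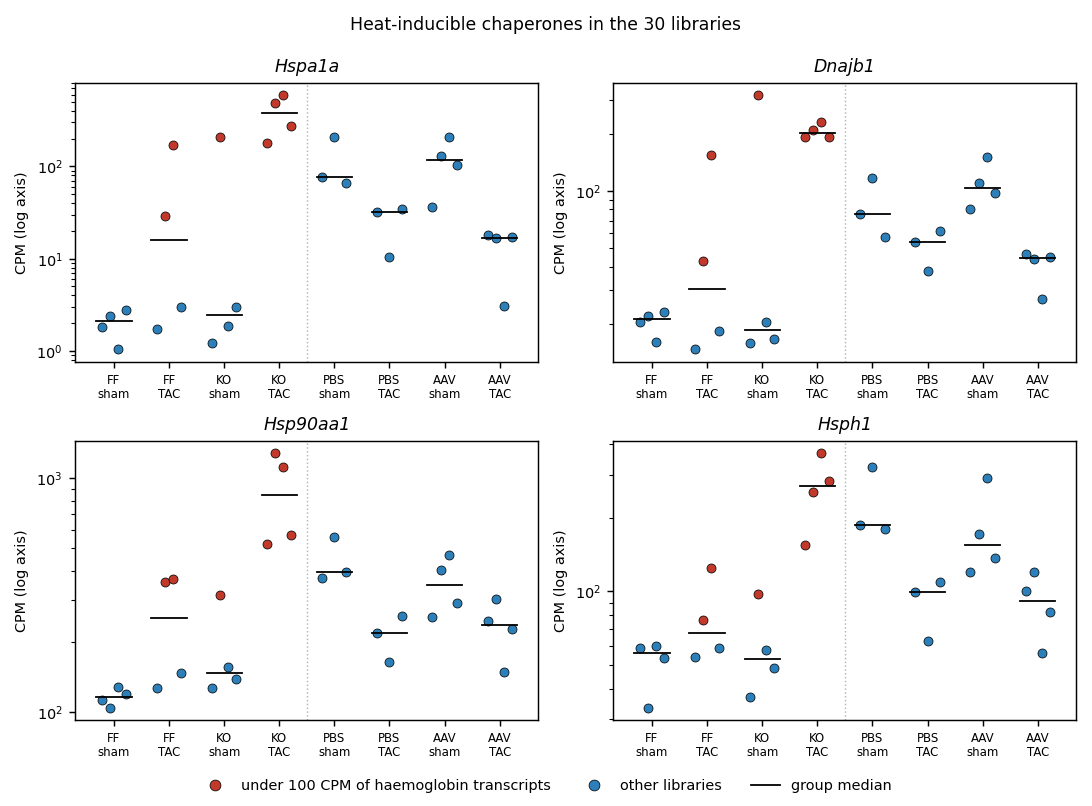
CPM on a log axis of the inducible HSP70 Hspa1a, the J-domain protein Dnajb1, the HSP90 Hsp90aa1 and the exchange factor Hsph1 in each library of the 8 groups, with the group median as a line. Red points are the 7 haemoglobin-low libraries, which lie above the 9 other floxed libraries in each panel, while the AAV9 TAC medians lie below the sham medians.

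Among the other HSP70s, Hspa8 encodes the constitutive cytosolic form. It stood at 994, 1645, 1137 and 994 CPM in KO_sham 1 to 4 and at 1813, 2495, 2699 and 2250 in KO_TAC 1 to 4, a rise of 0.97 ± 0.19 on the log2 scale with an adjusted p of 0.0040 by edgeR's quasi-likelihood test. All 4 KO_TAC libraries were above all 4 KO_sham libraries. Hspa1l, a gene next to Hspa1a on chromosome 17 that is best known from testis, read 2.74, 1.49, 3.58 and 2.45 CPM in FF_sham and 3.64, 8.41, 5.75 and 5.84 in FF_TAC, with no overlap, which held for 3 members (Hspa1l, Hspb6 and Hspb7) and 3.24% of genes. Its log2 fold change there was 1.18 ± 0.35, with an adjusted p of 0.33, the smallest p of any member in that comparison. In the knockouts Hspa1l read 2.94, 3.57, 4.48 and 2.94 CPM after sham and 6.30, 15.7, 11.9 and 5.97 after TAC, a rise of 1.52 ± 0.34 with an adjusted p of 0.0071 by the same test. An antisense gene covers 71.9% of the exons of Hspa1l. Hspa2, another testis-rich HSP70, passed the test in none of the 10 comparisons of the design.

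The HSP110 proteins are nucleotide exchange factors that recharge HSP70. Hsph1, the heat-inducible one, stood at 58.6, 33.5, 60.1 and 53.5 CPM in FF_sham and at 54.1, 76.5, 125 and 58.8 in FF_TAC. In the knockouts it stood at 36.9, 97.5, 57.4 and 48.8 CPM in KO_sham and at 154, 254, 366 and 283 in KO_TAC. The KO_TAC libraries were all above those of the other 3 floxed groups. Hsph1 rose by 2.14 ± 0.34 on the log2 scale in KO_TAC against KO_sham, with an adjusted p of 0.0016 by edgeR's quasi-likelihood test, and by 1.53 ± 0.32 with the haemoglobin term, with an adjusted p of 0.037. Its level in the AAV9 cohort was 186, 321 and 180 CPM in PBS_sham, 99.5, 62.6 and 110 in PBS_TAC, 120, 172, 291 and 137 in AAV_sham and 101, 120, 55.9 and 82.6 in AAV_TAC. Here TAC libraries were lower, with no overlap in the saline hearts (6 members lower in this way, against 7.19% of genes), and both injections together gave -1.16 ± 0.24 with an adjusted p of 0.040. This call of Hsph1 was lost in 12 of 14 fits without 1 library (-1.25 to -0.98), all but those without PBS_sham 1 or PBS_sham 3, and with the replicate block and the Myl7 covariate. Hspa4 and Hspa4l, constitutive relatives, were higher in KO_TAC than in KO_sham by 0.47 ± 0.13 and 0.45 ± 0.12, with an adjusted p of 0.017 each by the same test.

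Of the HSP90s, Hsp90aa1 is the inducible and Hsp90ab1 the constitutive cytosolic form. Hsp90aa1 stood at 112, 104, 127 and 120 CPM in FF_sham, 127, 358, 371 and 146 in FF_TAC, 127, 316, 155 and 139 in KO_sham and 522, 1272, 1116 and 570 in KO_TAC. The 3 haemoglobin-low libraries outside KO_TAC lay between the KO_TAC libraries and the rest. The rise in KO_TAC against KO_sham was 2.25 ± 0.40 on the log2 scale, with an adjusted p of 0.0027 by edgeR's quasi-likelihood test, and 1.37 ± 0.31 with the haemoglobin term, with an adjusted p of 0.041. Hsp90aa1 in the AAV9 cohort read 373, 559 and 395 CPM in PBS_sham and 217, 164 and 257 in PBS_TAC, and 255 to 468 in AAV_sham and 148 to 303 in AAV_TAC. Hsp90ab1 stood at 1408, 1799, 1520 and 1385 CPM in KO_sham and at 2108, 3296, 3293 and 2717 in KO_TAC, a rise of 0.91 ± 0.16 with an adjusted p of 0.0023. Its FF_sham libraries read 1618, 1437, 1623 and 1621 CPM and its FF_TAC libraries 1539, 2295, 2216 and 1630.

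Of the 4 divergent HSP70s 2 fell in KO_TAC against KO_sham, Hspa12b and Hspa12a. Hspa12b, known from endothelial cells, stood at 46.6, 47.5, 55.0 and 56.1 CPM in KO_sham and at 27.8, 30.5, 15.2 and 15.1 in KO_TAC, with no overlap. It fell by 1.20 ± 0.32 on the log2 scale, with an adjusted p of 0.015 by edgeR's quasi-likelihood test. In the floxed controls it read 46.4 to 64.0 CPM in FF_sham and 60.1, 24.9, 23.3 and 62.4 in FF_TAC, where the 2 low values are the haemoglobin-low libraries. Hspa12a, its relative, read 25.4, 27.8, 27.7 and 31.8 CPM in KO_sham and 23.7, 9.07, 10.5 and 13.9 in KO_TAC, and fell by 0.96 ± 0.26 with an adjusted p of 0.017. Neither fall was called without KO_TAC 3, at -1.06 for Hspa12b and -0.84 for Hspa12a. Endothelial markers moved in the same comparison: 4 of 5 were lower in KO_TAC than in KO_sham by the same test and none higher, the 5 summed to 693 to 853 CPM in KO_sham and 459 to 655 in KO_TAC, and none was at 0. FF_TAC 2 and 3, with Hspa12b at 24.9 and 23.3 CPM, had endothelial sums of 704 and 730 CPM. FF_sham 2 and KO_sham 1, with Hspa12b at 46.4 and 46.6 CPM, had sums of 730 and 693 CPM. The mean log2 CPM of the 5 markers was 7.08 and 7.06 in FF_TAC 2 and 3. It was 7.16 in FF_sham 2 and 7.10 in KO_sham 1. The part of these markers in the fall of Hspa12b was not tested. The highest Hspa12b value of the AAV9 cohort, 125 CPM, was in PBS_sham 3, which also had the highest endothelial sum, 1542 CPM. Hspa13 and Hspa14 passed the test in no comparison of the design, though every KO_TAC library of Hspa14 (20.99 to 25.89 CPM) was above every KO_sham library (18.2 to 20.5).

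The J-domain proteins deliver clients to HSP70 and start its ATP hydrolysis. Dnaja1 stood at 68.3, 68.9, 55.5 and 70.5 CPM in FF_sham, 60.4, 109, 195 and 65.4 in FF_TAC, 62.0, 196, 70.8 and 63.2 in KO_sham and 231, 388, 468 and 293 in KO_TAC. Its rise in KO_TAC against KO_sham was 1.82 ± 0.41 on the log2 scale, with an adjusted p of 0.0077 by edgeR's quasi-likelihood test. The KO_TAC libraries were all above the rest, and the 3 other haemoglobin-low libraries came next. Dnaja1 in the AAV9 cohort read 260, 357 and 230 CPM in PBS_sham, 135, 94.4 and 152 in PBS_TAC, 200, 234, 304 and 200 in AAV_sham and 124, 111, 72.6 and 115 in AAV_TAC, with every TAC library below every sham library. It had the smallest p of any member with saline, -1.13 ± 0.25 with an adjusted p of 0.11 by the same test. Over both injections Dnaja1 had a log2 fold change of -1.14 ± 0.17, with an adjusted p of 0.010 by that test. The latter call was lost with the replicate block and with the Myl7 covariate. Dnajb1, the J-domain partner of inducible HSP70, read 20.4, 22.1, 16.1 and 23.1 CPM in FF_sham, 14.7, 42.8, 154 and 18.4 in FF_TAC, 15.8, 319, 20.5 and 16.7 in KO_sham and 193, 210, 231 and 193 in KO_TAC. Its highest value was therefore in a sham heart, KO_sham 2, and KO_TAC against KO_sham gave 1.15 ± 0.89 with an adjusted p of 0.34. Saline hearts of the other cohort read 57.5 to 117 CPM after sham and 37.9 to 61.8 after TAC, and vector hearts 80.5 to 151 after sham and 27.0 to 46.8 after TAC. With the vector Dnajb1 had the smallest p of any member, -1.43 ± 0.26 with an adjusted p of 0.13 by edgeR's quasi-likelihood test. Dnajb2 and Dnajb6 were higher in KO_TAC than in KO_sham by 0.44 ± 0.10 and 0.39 ± 0.13, with adjusted p of 0.0097 and 0.038. The call of Dnajb6 was lost in 5 of 8 fits without 1 library. Dnaja2, Dnaja4, Dnajb4 and Dnajb5 passed the test in no comparison of the design.

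Of the 7 small heat shock proteins 4 rose in KO_TAC against KO_sham, Hspb1, Cryab, Hspb7 and Hspb2. Hspb7, a muscle-specific member that binds filamin and holds up the sarcomere, stood at 2490, 1988, 2485 and 1924 CPM in FF_sham and at 2627, 4375, 3776 and 3236 in FF_TAC, with no overlap. In the knockouts Hspb7 stood at 2258, 2172, 2285 and 2087 CPM in KO_sham and at 1942, 5208, 4252 and 3565 in KO_TAC, where KO_TAC 1 was below every KO_sham library. KO_TAC 1 also had the highest atrial marker sum of all libraries, 8544 CPM, and the highest smooth muscle sum of the floxed cohort, 346 CPM. The part of these markers in its Hspb7 value was not tested. The log2 fold change of Hspb7 was 0.64 ± 0.23 in FF, with an adjusted p of 0.36, and 0.78 ± 0.23 in KO, with an adjusted p of 0.023 by edgeR's quasi-likelihood test. The latter call was lost in 4 of 8 fits that left out 1 library (KO_sham 3, KO_sham 4, KO_TAC 2 or KO_TAC 3). Hspb7 in the AAV9 cohort read 2360, 1501 and 351 CPM in PBS_sham, 2864, 2771 and 3689 in PBS_TAC, 1933, 2447, 2202 and 2086 in AAV_sham and 2892, 4183, 2410 and 2764 in AAV_TAC. TAC medians were above sham medians in all 4 pairs of groups, and the haemoglobin-low library KO_sham 2 lay within the range of the other KO_sham libraries, while the haemoglobin-low FF_TAC 2 and 3 held the highest FF_TAC values. Its TAC effect was 1.15 ± 0.47 with saline and 0.50 ± 0.40 with the vector, with adjusted p of 0.23 and 0.91 by the same test. The value with saline was 0.69 ± 0.22 without PBS_sham 3.

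Hspb6, which is phosphorylated in response to cyclic AMP in heart muscle, passed the test in no comparison of the design. It read 823, 705, 918 and 799 CPM in FF_sham and 951, 1833, 1396 and 1250 in FF_TAC, with no overlap and a log2 fold change of 0.73 ± 0.22, with an adjusted p of 0.33 by edgeR's quasi-likelihood test. The highest FF_TAC values of Hspb6 were again those of FF_TAC 2 and 3. In the knockouts Hspb6 read 807, 667, 704 and 653 CPM in KO_sham and 563, 1064, 977 and 1290 in KO_TAC, which overlapped, with a log2 fold change of 0.47 ± 0.21 and an adjusted p of 0.11. Within the haemoglobin-high libraries alone, 4 FF_sham against 2 FF_TAC, the change of Hspb6 was 0.43 ± 0.13 and that of Hspb7 0.39 ± 0.13, neither called. For Hspb6 every TAC library of the AAV9 cohort was above every sham library, as for 0.565% of genes, with 789, 548 and 167 CPM in PBS_sham, 1191, 1027 and 1339 in PBS_TAC, 577, 821, 719 and 705 in AAV_sham and 1078, 1644, 939 and 1104 in AAV_TAC. Both injections together gave 1.004 ± 0.27 for Hspb6, with an adjusted p of 0.093. Without PBS_sham 3 this contrast gave 0.79 ± 0.14 for Hspb6 and 0.59 ± 0.14 for Hspb7, with adjusted p of 0.011 and 0.034 by edgeR's quasi-likelihood test.

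Hspb1 is a small heat shock protein that is also heat-inducible. It stood at 136, 399, 172 and 148 CPM in KO_sham and at 621, 990, 927 and 549 in KO_TAC, and rose by 1.86 ± 0.37 with an adjusted p of 0.0040 by edgeR's quasi-likelihood test. With the haemoglobin term the rise of Hspb1 was 1.11 ± 0.26, with an adjusted p of 0.046. Its FF_sham libraries read 216, 122, 194 and 189 CPM and its FF_TAC libraries 185, 459, 381 and 220. In the AAV9 cohort Hspb1 overlapped between sham and TAC, with saline values of 150 to 400 CPM after sham and 189 to 298 after TAC and vector values of 166 to 328 after sham and 202 to 412 after TAC, and both injections together gave -0.06 ± 0.24, with an adjusted p of 0.91 by edgeR's quasi-likelihood test. Cryab, the lens and muscle crystallin, rose by 1.05 ± 0.25 in KO_TAC against KO_sham, and Hspb2, its divergently transcribed neighbour, by 0.64 ± 0.21, with adjusted p of 0.0090 and 0.038. The call of Hspb2 was lost in 6 of 8 fits without 1 library, all but those without KO_TAC 1 or KO_TAC 4. The 2 genes overlap on opposite strands. Hspb3 and Hspb8 passed the test in no comparison of the design.

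**Figure D2:**
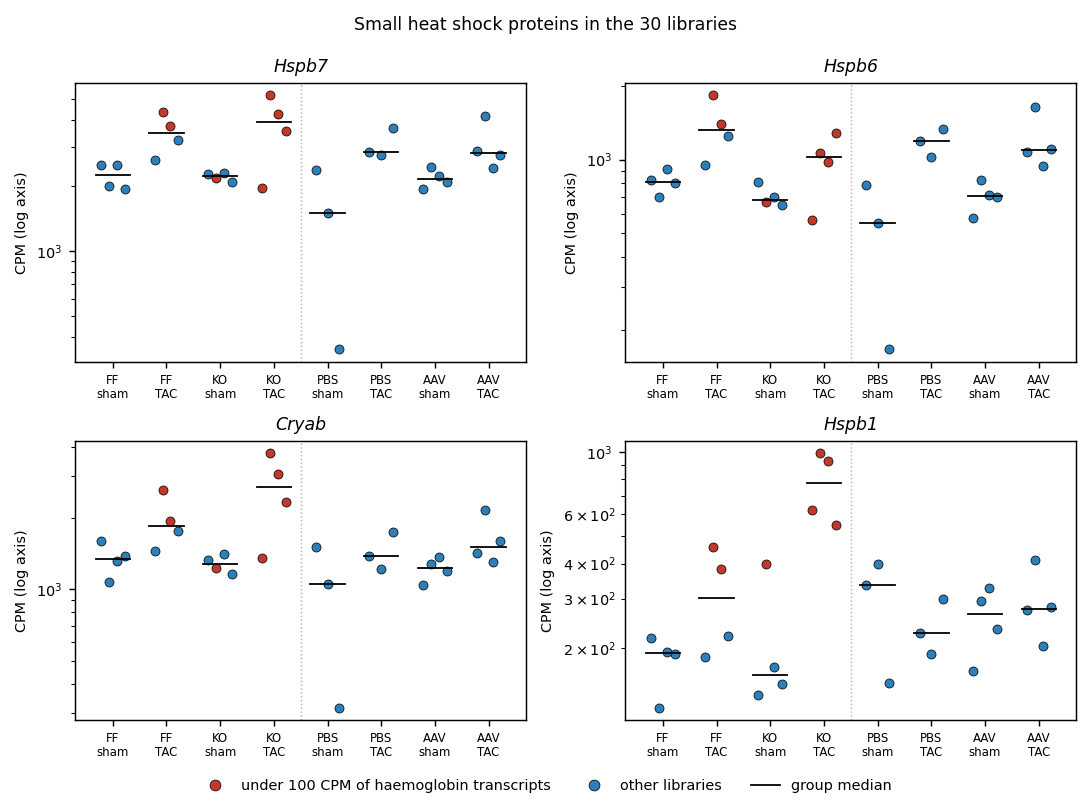
CPM on a log axis of the small heat shock proteins Hspb7, Hspb6, Cryab and Hspb1 in each library of the 8 groups, with the group median as a line and the haemoglobin-low libraries in red. Hspb7, Hspb6 and Cryab have higher medians after TAC in all 4 pairs of groups and very low values in PBS_sham 3, while Hspb1 is high in the haemoglobin-low library KO_sham 2.

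Of the mitochondrial chaperones 1 of 4 was called in KO_TAC against KO_sham. Hspe1, the lid of the mitochondrial chaperonin, was higher in KO_TAC than in KO_sham by 0.78 ± 0.19 on the log2 scale, with an adjusted p of 0.010 by edgeR's quasi-likelihood test, at 79.9, 80.1, 79.3 and 63.4 CPM against 86.8, 173, 150 and 105. Hspd1, the chaperonin itself, gave -0.01 ± 0.085 and the mitochondrial HSP70 Hspa9 -0.06 ± 0.096 in the same comparison, neither called. Hspe1 and Hspd1 are transcribed in opposite directions from the shared stretch printed above. Bag3, which links HSP70 to small heat shock proteins and autophagy, stood at 233, 286, 276 and 241 CPM in KO_sham and at 338, 467, 469 and 400 in KO_TAC, a rise of 0.70 ± 0.12 with an adjusted p of 0.0025. Hsf1, the transcription factor, passed the test in no comparison of the design and gave -0.14 ± 0.13 here, with an adjusted p of 0.46.

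**Figure D3:**
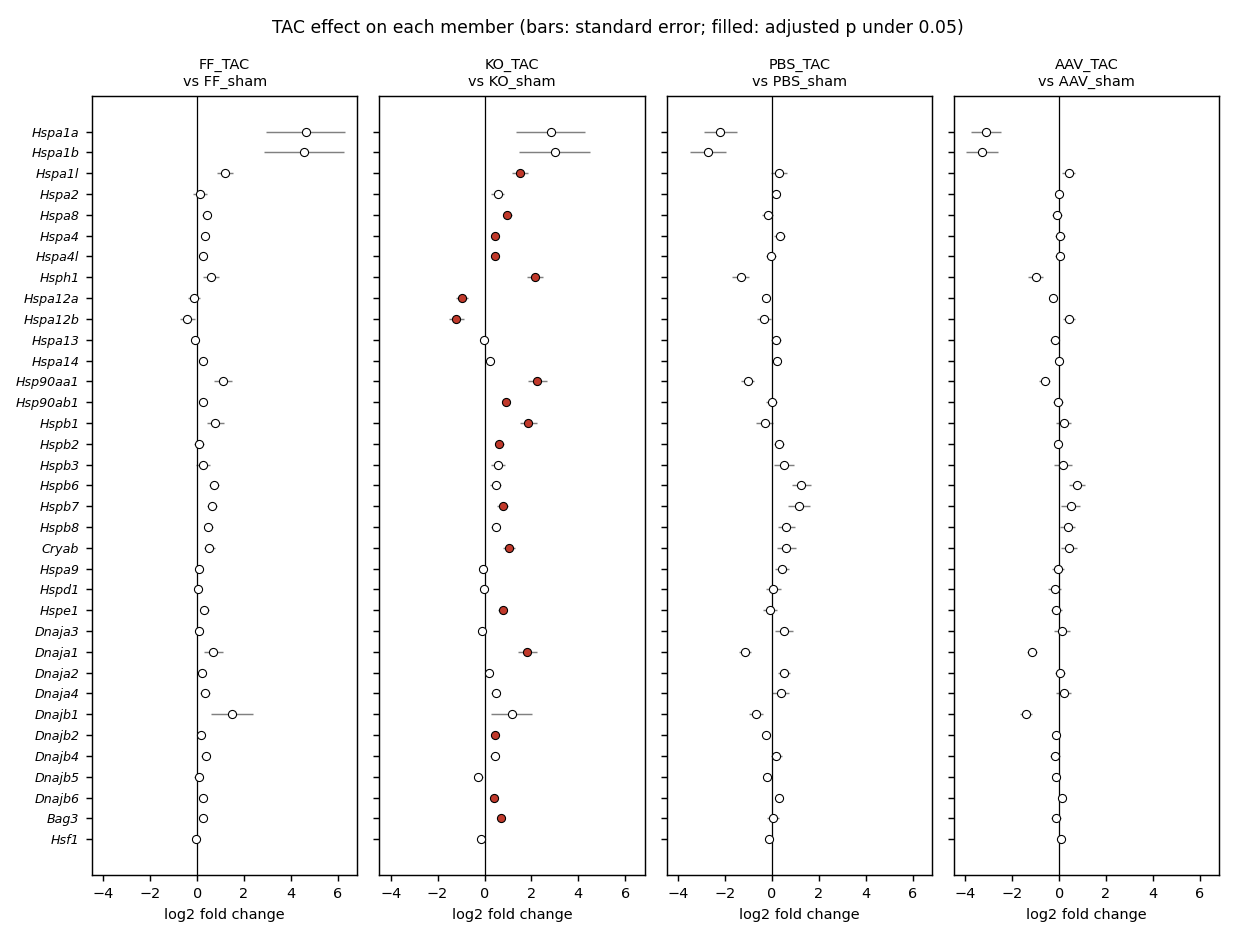
Log2 fold change of TAC against sham, with its standard error, for each of the 35 members in floxed control, knockout, saline and vector hearts, with filled points for an adjusted p under 0.05. Filled points occur in the knockout panel alone (16 higher, 2 lower), and the estimates for Hspa1a and Hspa1b lie right of 0 in the floxed cohort and left of 0 in the AAV9 cohort.

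In the floxed controls TAC called 0 members, as edgeR's quasi-likelihood test called 0% of 15596 genes there. At an unadjusted p under 0.05 it marked 11 members and 11.1% of all genes, and DESeq2 called 0 members and 1.12% of genes. KO_sham against FF_sham likewise called 0 members and 0% of genes by edgeR, and 0 members and 0.0962% of genes by DESeq2, with 3 members at an unadjusted p under 0.05 against 5.22% of genes. The smallest p were those of Hspa1a, 4.75 ± 1.69 with an adjusted p of 0.90, and Hspa1b, 4.76 ± 1.71 with an adjusted p of 0.90 by edgeR's quasi-likelihood test. Without KO_sham 2 they were 0.01 ± 1.22 and -0.12 ± 1.22, neither called.

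KO_TAC against FF_TAC shares its KO_TAC libraries with the comparison above. Here 6 members were higher and 2 lower by edgeR's quasi-likelihood test, where 14.3% of all genes were called, 7.53% higher and 6.8% lower. Hsp90aa1 was higher by 1.82 ± 0.40, Hsph1 by 1.77 ± 0.34, Dnaja1 by 1.71 ± 0.41, Hspb1 by 1.34 ± 0.36, Hspa8 by 0.64 ± 0.19 and Hsp90ab1 by 0.60 ± 0.16 on the log2 scale. For Hsp90aa1, Hsph1, Dnaja1 and Hspb1 every KO_TAC library was above every FF_TAC library, as for 8 members and 6.14% of genes in all. Every KO_TAC library was below every FF_TAC library for 4 members, Hspa9, Hspd1, Dnaja3 and Hsf1, and for 7.54% of genes. DESeq2 called 12 members where 19.6% of genes were called. Hspa12a had a log2 fold change of -1.02 ± 0.26, and Dnaja3, a mitochondrial J-domain protein, one of -0.44 ± 0.12, at 154, 163, 154 and 165 CPM in FF_TAC and 93.6, 116, 108 and 142 in KO_TAC. The adjusted p of these 8 members ran from 0.0038 for Hsph1 to 0.037 for Hspa8 by the same test. With 1 library left out, Hspb1, Hspa8 and Hsp90ab1 each lost their call in 4 of 8 fits (without FF_TAC 1, FF_TAC 4, KO_TAC 2 or KO_TAC 3), Hspa12a in 3, Dnaja3 in 2 and Dnaja1 in 1. With the haemoglobin term 4 members stayed called, Hsp90aa1, Dnaja1, Hsph1 and Hspb1, where 7.23% of all genes were called. Among haemoglobin-low libraries alone, 4 KO_TAC against 2 FF_TAC, 0 members and 0% of genes were called, with 6 members against 9.62% of genes at an unadjusted p under 0.05.

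The interaction asks whether TAC acted differently in knockout and floxed hearts. It called 0 members, where 0.0449% of all genes were called by edgeR's quasi-likelihood test, 0.0256% higher and 0.0192% lower. At an unadjusted p under 0.05 it marked 5 members and 13.1% of genes, and DESeq2 called 1 member, Hsph1, where it called 2.42% of genes. The smallest p were those of Hsph1, with a difference of 1.55 ± 0.47 in log2 fold change, and Hsp90ab1, with 0.64 ± 0.22, at adjusted p of 0.17 and 0.23. A different response of the members to TAC in the 2 genotypes was therefore not shown.

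Haemoglobin and the inducible members moved in opposite directions within groups. In the model with this term, which is estimated from FF_TAC and KO_sham because no other group holds both kinds of library, 9 members were higher in haemoglobin-low libraries and 0 lower by edgeR's quasi-likelihood test, where 4.13% of all genes were called, 3.1% higher and 1.03% lower. This contrast was added after seeing the data. The log2 differences were 6.02 ± 0.57 for Hspa1a, 6.02 ± 0.63 for Hspa1b, 3.33 ± 0.35 for Dnajb1, 1.41 ± 0.21 for Dnaja1, 1.31 ± 0.24 for Hsp90aa1, 1.20 ± 0.21 for Hspb1, 0.89 ± 0.21 for Hspa2, 0.64 ± 0.12 for Hspa8 and 0.41 ± 0.09 for Dnajb6. Their adjusted p ran from 9.4e-06 for Hspa1a to 0.025 for Hspa2. For 11 members all 7 haemoglobin-low libraries were above all 9 others, against 3.97% of genes, and for 0 members all 7 were below, against 1.97%. The 11 were Hspa1a, Hspa1b, Hspa8, Hsph1, Hsp90aa1, Hsp90ab1, Hspb1, Dnaja1, Dnajb1, Dnajb4 and Dnajb6.

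**Figure D4:**
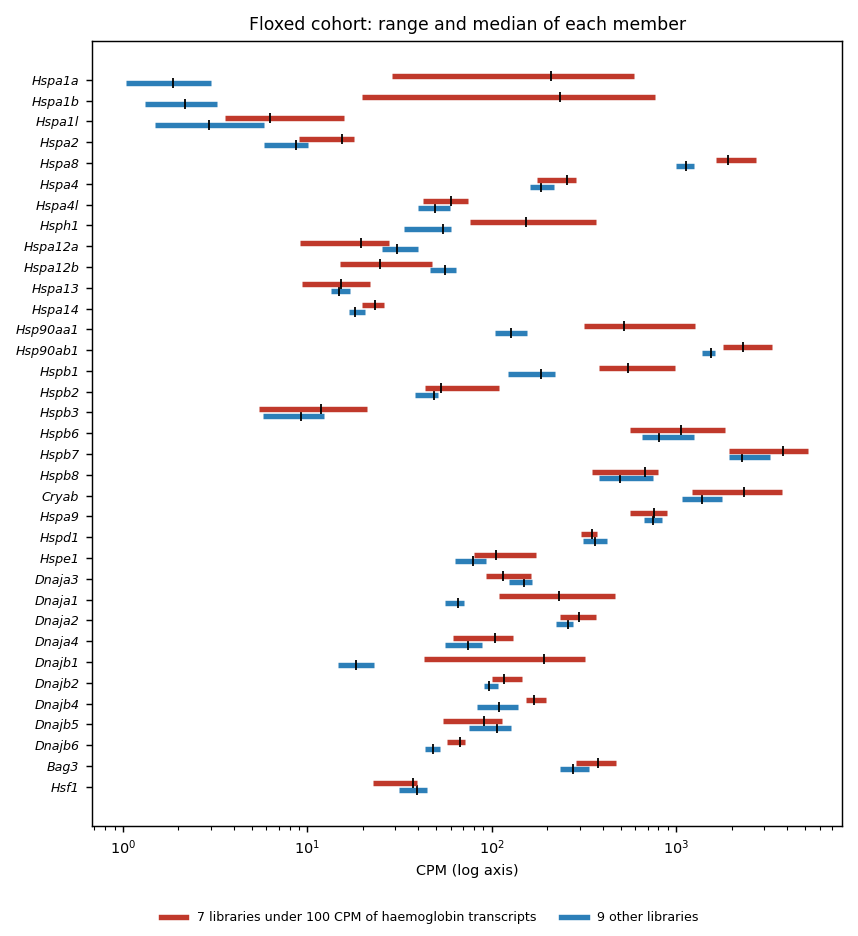
Range of CPM, on a log axis, of each of the 35 members in the 7 haemoglobin-low libraries (red) and the 9 other libraries (blue) of the floxed cohort, with a tick at the median. The ranges of 11 members do not touch, and the median of Hspa1a is 210 CPM in the 7 against 1.87 CPM in the 9.

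Early response genes moved with the same libraries. All 12 of the list (Fos, Jun, Egr1 and others, which cells transcribe within minutes of a stimulus) were higher with the haemoglobin term by edgeR's quasi-likelihood test, and they summed to 2267 to 6332 CPM in the 7 libraries against 224 to 333 CPM in the 9, with none at 0. Vector hearts summed to 763 to 1211 CPM after sham and 533 to 807 after TAC, and saline hearts to 494 to 800 after sham and 607 to 908 after TAC. The 6 ventricular cardiomyocyte markers summed to 40180 to 59290 CPM in the 7 libraries and 46980 to 55790 in the 9. What sets the level of haemoglobin, early response and inducible heat shock transcripts in a library is not in the labels, and its part in the results on the floxed hearts was not tested beyond the fits given here.

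**Figure D5:**
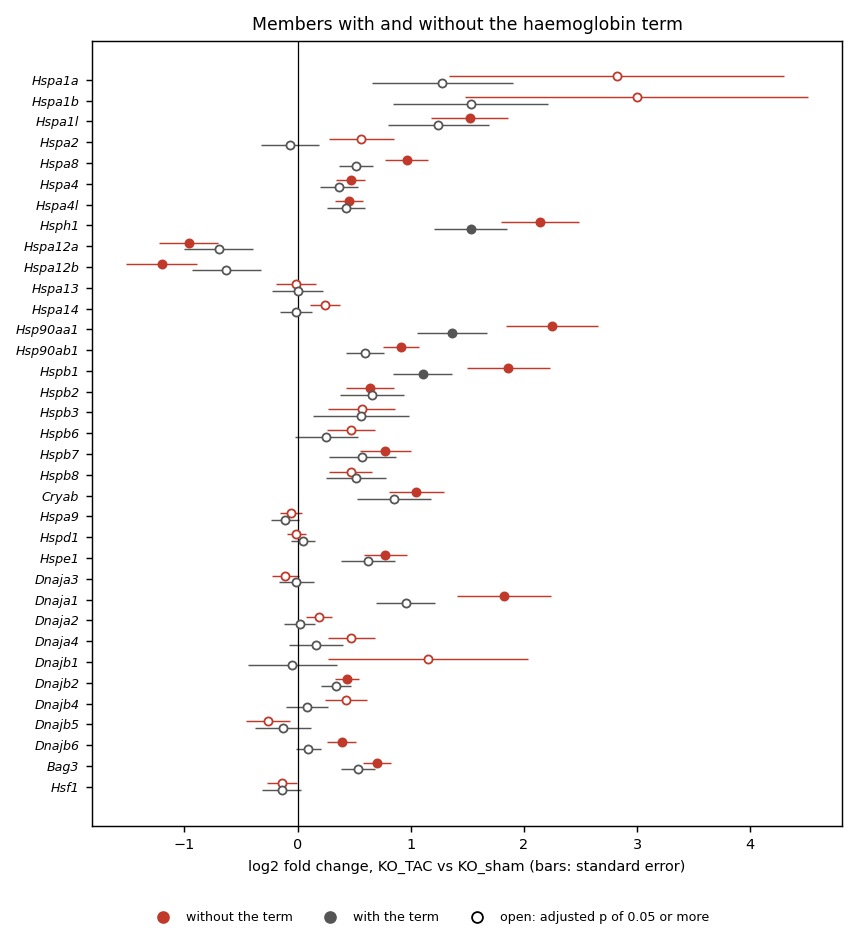
Log2 fold change of KO_TAC against KO_sham, with its standard error, for each of the 35 members without (red) and with (grey) a term for haemoglobin-low libraries, with filled points for an adjusted p under 0.05. The 16 higher and 2 lower calls become 3 higher calls, Hsph1, Hsp90aa1 and Hspb1, and the estimate for Dnajb1 moves from 1.15 to -0.05.

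In the AAV9 cohort the separate comparisons called 0 members. With saline TAC called 0 of 35 members by edgeR's quasi-likelihood test, where 0.0318% of all genes were called, 0.0191% lower, with 8 members against 18.5% of genes at an unadjusted p under 0.05, and DESeq2 called 4 lower, Hspa1b, Hsph1, Hsp90aa1 and Dnaja1, where it called 2.35% of genes. With the vector it called 0, where 0.00635% of genes were called, with 7 members against 7.05% of genes at an unadjusted p under 0.05, and DESeq2 called 4 lower, Hspa1a, Hspa1b, Dnaja1 and Dnajb1, where it called 0.743% of genes. Over both injections 5 members were lower and 0 higher, where 0.908% of genes were called, 0.432% lower: Dnaja1, Hspa1b, Hspa1a, Dnajb1 (-1.06 ± 0.20, adjusted p of 0.031) and Hsph1. Dnajb1 lost this call in 10 of 14 fits without 1 library and Dnaja1 in 0, but both lost it with the replicate block and the Myl7 covariate. This contrast weights both injections equally over 7 sham and 7 TAC libraries and was added after seeing the data. Without PBS_sham 3 it called 9 lower and 3 higher, where 4.53% of genes were called, and with log2 CPM of the atrial gene Myl7 as a covariate it called 0 members and 0% of genes.

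The comparisons of vector with saline called 0 members. AAV_sham against PBS_sham, which shares its libraries with the TAC comparisons, called 0 members where 0.0127% of genes were called by edgeR's quasi-likelihood test, with 3 members against 20.7% of genes at an unadjusted p under 0.05, and DESeq2 called 0. The smallest p were those of Hspa12b, which read 53.6, 36.2 and 125 CPM in PBS_sham and 38.0, 35.2, 44.3 and 42.8 in AAV_sham, and of Hspa12a, at 35.7, 31.3 and 26.0 against 32.3, 36.1, 41.0 and 44.5. Both overlapped between the groups, with adjusted p of 0.17 and 0.23. AAV_TAC against PBS_TAC called 0 members where 0.0381% of genes were called, with 2 members against 3.19% at an unadjusted p under 0.05, and DESeq2 called 0. These 2 were Hspa2, at 11.0, 11.8 and 12.1 CPM in PBS_TAC and 10.0, 8.88, 7.27 and 7.85 in AAV_TAC, and Hspa12a, at 27.9, 25.1 and 22.9 against 32.4, 28.2, 34.7 and 31.9, both without overlap (2 members higher in this way against 4.33% of genes, 1 lower against 4.01%) and with adjusted p of 0.86 and 1. The interaction of vector and TAC called 0 members where 0.00635% of genes were called, with 0 members against 6.95% of genes at an unadjusted p under 0.05 and 0 by DESeq2, and its smallest p were those of Hspa12b (0.74 ± 0.39) and Dnajb1 (-0.75 ± 0.39), with an adjusted p of 0.69 each by edgeR's quasi-likelihood test.

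The direction of the TAC effect on the inducible members thus differed between the cohorts in its estimates, and this difference was tested in a fit of all 30 libraries. For saline minus floxed controls it was -7.31 ± 2.05 for Hspa1b, -6.85 ± 1.98 for Hspa1a, -2.17 ± 0.53 for Hsp90aa1, -1.95 ± 0.52 for Hsph1 and -1.86 ± 0.52 for Dnaja1 on the log2 scale. Their adjusted p ran from 0.14 to 0.18 by edgeR's quasi-likelihood test, which called 0 members and 0% of 16583 genes, with 12.1% of genes at an unadjusted p under 0.05. Strain and injection differ along with the cohort and cannot be told apart from it. Haemoglobin-low libraries occur in the floxed cohort alone, and within FF_TAC they are libraries 2 and 3. Hspa1a stood at 28.9 and 170 CPM in these and at 1.74 and 3.01 in FF_TAC 1 and 4, against 1.04 to 2.76 in FF_sham. Their part in the difference between the cohorts was not tested. The contrast was added after seeing the data.

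Partners of the members were read from fixed lists. In KO_TAC against KO_sham, where 25.8% of all genes were called by edgeR's quasi-likelihood test, 9 of 18 HSP70 and HSP90 co-chaperones were higher and 1 lower, with a median log2 fold change of 0.39. The smallest p were those of Stip1, the HSP70 to HSP90 adaptor, at 0.95 ± 0.13, Ahsa1, an activator of HSP90, at 0.62 ± 0.10, and Ptges3, the p23 co-chaperone of HSP90, at 0.52 ± 0.12. Of the 8 TRiC chaperonin subunits, which fold actin and tubulin, 7 were higher and 0 lower, led by Cct3 at 0.78 ± 0.12, Cct8 at 0.71 ± 0.15 and Cct5 at 0.52 ± 0.12. Of the 12 mitochondrial partners and proteases 1 was higher, the protease Lonp1 at 0.56 ± 0.16, and 1 lower, the unfoldase Clpx at -0.27 ± 0.09. Of the 4 Bag3 autophagy partners 2 were higher, the Z-disc filamin Flnc at 1.12 ± 0.15 and the autophagy receptor Sqstm1 at 1.10 ± 0.24. Of the other heat shock factors and their binding protein 0 of 3 were called by edgeR, with Hsbp1 nearest at 0.34 ± 0.14 and an adjusted p of 0.071. In KO_TAC against FF_TAC, where 14.3% of all genes were called, 5 of 18 co-chaperones were higher and 1 lower and 1 of 8 TRiC subunits was higher. The TRiC count is near that share. With the haemoglobin term as the contrast itself, 0 of 18 co-chaperones and 0 of 8 TRiC subunits were called by edgeR, where 4.13% of all genes were. The median log2 difference with this term was 0.17 for the co-chaperones and 0.22 for TRiC, against 0.39 for TRiC in KO_TAC against KO_sham. The term is estimated from few libraries of FF_TAC and KO_sham, so the lack of calls does not separate these lists from the haemoglobin level. Their changes in KO_TAC were not tested with the term in the model. TAC in FF, with saline and with the vector called 0 genes of these 5 lists, and both injections together called 1 co-chaperone, lower. The shares of all genes called in these contrasts are given with the members above.

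The members with no call in any comparison of the design were Hspa2, Hspa13, Hspa14, Hspb3, Hspb6, Hspb8, Hspa9, Hspd1, Dnaja2, Dnaja4, Dnajb4, Dnajb5 and Hsf1, besides the inducible Hspa1a, Hspa1b and Dnajb1. Over the 30 libraries Hspa9 ranged from 59.1 to 207 RPKM, Hspd1 from 53.5 to 192, Dnaja2 from 35.7 to 124 Hspb8 from 75.3 to 451 and Hspb6 from 72.5 to 797. Each of these 5 had its lowest value in PBS_sham 3. Dnaja4 ranged from 7.29 to 37.2 RPKM, Dnajb4 from 8.59 to 22.4, Dnajb5 from 9.17 to 26.8 and Hspb3 from 2.16 to 26.8. The remaining ones were low throughout, Hsf1 at 3.22 to 6.26 RPKM, Hspa14 at 3.62 to 6.45, Hspa2 at 2.21 to 6.76 and Hspa13 at 1.24 to 3.20.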

How the data were processed

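The authors' deposited table holds whole-number read counts per gene for 30 libraries, and each column was mapped to a sample by its name. Reads were aligned with HISAT2 2.1.0 to GRCm38 and counted with featureCounts of Subread 1.5.1, per the submitters' processing notes. The annotation release and the strand setting are not given in the sources used here. Symbols came from GENCODE M21, which matched 55141 of 55487 identifiers, and identifiers without a symbol held 0.0192% of counts. Each cohort was fitted apart (16 and 14 libraries, 15596 and 15745 genes after filterByExpr) with 1 mean per group by edgeR 4.0.16 in R 4.3.3, using TMM, the quasi-likelihood F test and Benjamini-Hochberg adjustment over all genes tested. A gene was called at an adjusted p under 0.05. Standard errors are the log2 fold change divided by the square root of F. CPM were scaled by TMM over all 30 libraries, on 16583 genes, and the tests used the scaling of their cohort. RPKM divide CPM by the exon length in GENCODE M21. Promoter windows are RefSeq's.

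In each comparison the called members were named, and without a call the 2 members of smallest p. Values in every library are given for the 4 largest changes each way among called members that average 5 CPM or more in their higher group. Hspa1a and Hspb7 are described throughout, and up to 3 genes of each partner list are named by smallest p in KO_TAC against KO_sham. The members, lists and tests were chosen with earlier results of these data known. Alternatives were DESeq2 1.42.0, RLE size factors, other filters, a replicate block, a Myl7 covariate, other sets of libraries, the haemoglobin term and leaving out each library. The fitting code was tested on simulated counts of KO_TAC against KO_sham, with 100 genes changed at each size. There edgeR recovered 54% of changes of 1 on the log2 scale and 92% of changes of 2, and DESeq2 63% and 93%. False calls were 2.67% of all calls by edgeR and 13.8% by DESeq2.

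Library totals of 14839758 to 22070373 counts set the precision of low genes. The samples share replicate numbers but no stated origin, so they were not paired.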

Additional observations from a re-analysis of the deposited data

Results flagged for a closer look

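Within groups of 4 libraries, a library was marked when its gap to the nearest other took up nearly the whole range of the group. Of 144 combinations of 24 members and groups tested, 14 were marked, in 7 libraries, and chance marks about 1 in 20. KO_sham 2 was the highest of its group for Hspa1a (210 CPM), Hspa1b (236), Hsp90aa1 (316), Hspb1 (399), Dnaja1 (196) and Dnajb1 (319), and it was the haemoglobin-low library of that group. FF_TAC 3, also haemoglobin-low, was the highest of its group for Hspa1a (170 CPM) and Hspa1b (190), and FF_TAC 2, haemoglobin-low too, for Hspe1 (123 CPM). AAV_TAC 3 was the lowest of its group for Hspa1a (3.06 CPM) and Dnajb1 (27.0). The other low values were Hsp90ab1 in FF_sham 2 (1437 CPM), Dnaja1 in FF_sham 3 (55.5 CPM) and Hspe1 in KO_sham 4 (63.4 CPM). What set these libraries apart was not tested.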

How the results depend on the processing

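The count of members called in KO_TAC against KO_sham, 18 in all, stayed within 1.5 times under DESeq2, RLE size factors, both other filters, the replicate block, the Myl7 covariate and other sets of samples, and ran from 12 to 21 when 1 library was left out. It was 3 with the haemoglobin term and 0 among haemoglobin-low libraries, where KO_sham is 1 library assumed to vary like the others. In KO_TAC against FF_TAC, 8 members called became 4 with the haemoglobin term, 0 among haemoglobin-low libraries, 2 in a fit of the groups compared alone, and 2 to 16 when 1 library was left out: 4 without FF_TAC 1, 2 without FF_TAC 4, 3 without KO_TAC 3 and 16 without KO_TAC 1. The share of all genes called moved in these fits too, from 14.3% in the main fit. It was 7.23% with the haemoglobin term, 0% among haemoglobin-low libraries, 3.79% with the groups compared alone and 8.65% without FF_TAC 1. DESeq2 called 1 member in the interaction of knockout and TAC, 4 with saline and 4 with the vector, where edgeR called 0. Without a filter edgeR called 2 with saline and 4 with the vector, and a fit of the vector groups alone called 5. Leaving out 1 library gave 0 to 6 with saline (6 without PBS_sham 1, 1 without PBS_sham 3) and 0 to 2 for AAV_sham against PBS_sham (2 without PBS_sham 1). The contrast over both injections, 5 called, gave 0 with the replicate block, 0 with the Myl7 covariate and 3 in a fit of all 30 libraries. It gave 1 to 12 when 1 library was left out: 12 without PBS_sham 3, 8 without PBS_sham 1, 3 without AAV_sham 2, 2 without PBS_TAC 2 or AAV_sham 4, and 1 without PBS_sham 2, PBS_TAC 1, PBS_TAC 3, AAV_sham 3, AAV_TAC 1, AAV_TAC 2 or AAV_TAC 4. The cause of these differences was not tested. Counts of members given here without a share of all genes are not read as results about the members.

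Turned directions were all of uncalled changes: Hspa1a in FF_TAC against FF_sham was -0.15 with the haemoglobin term, and Hspa1b in KO_sham against FF_sham was -0.11 among haemoglobin-high libraries and -0.12 without KO_sham 2 (range -0.12 to 5.17 over the fits without 1 library). With the haemoglobin term Dnajb1 turned too, to -0.05 in KO_TAC against KO_sham and -0.66 in FF_TAC against FF_sham, as did Hspa1b in the latter (-0.16), and so did other uncalled members under these and further settings. Of the fits of members named by the rule, 816 kept their side of the threshold, 150 lost a call and 21 gained one. Same-numbered samples share a number but no stated origin. In the floxed cohort 2 of 16 libraries and in the AAV9 cohort 4 of 14 correlated best with a library of their own number. Such a count cannot show whether same-numbered samples share an origin. Beside the contrast over both injections, the replicate block moved no count of members by over 1.5 times.

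The fall of Hspa12b and Hspa12a in KO_TAC was not called without KO_TAC 3. Hspb7 in KO_TAC against KO_sham lost its call in 4 of 8 fits without 1 library, Dnajb6 in 5 and Hspb2 in 6. Groups of 3 or 4 libraries and members with shared sequence limit what can be told apart.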
